A study of Mus musculus with 15 samples.

Results

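Immediate early genes are genes whose transcription starts within minutes of a stimulus and needs no new protein synthesis. Here 10 of them were followed by gene symbol through a table of 22798 genes in mouse skeletal muscle: Fos, Fosb, Jun, Junb, Jund, Egr1, Atf3, Maff, Ier2 and Nr4a1. All 10 were in the table, and all 10 passed the filter on low counts. The table holds read counts of 15 libraries from C57BL/6 mice aged 12 months, kept on a normal diet and sampled after a night without food. The groups were sedentary mice (n = 6 libraries), exercise mice (n = 6 libraries) and mice labelled CD47-KO (n = 3 libraries), CD47 being a cell-surface receptor of thrombospondin. The sedentary mice are given as wild-type, and the exercise mice carry no knockout label, so both are called wild-type below. The muscle taken, the kind of exercise, the time from the last bout to sampling and the knockout allele are not given in the sources used here. Nothing in the labels says that the libraries come from separate mice, so each p-value speaks of the spread among these libraries, which may be technical.

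The total count was 50928458 to 70774311 in the sedentary libraries, 54851831 to 77628546 in the exercise libraries and 76005277 to 84364189 in the libraries labelled CD47-KO. Cd47 itself was at 11.4 to 16.4 CPM (counts scaled to the effective library size) in the sedentary libraries, 10.8 to 15.7 in the exercise libraries and 11.5 to 12.1 in the libraries labelled CD47-KO, which overlapped with both. The edgeR log2 fold change of Cd47 against sedentary was -0.26 (SE 0.17, adjusted p = 0.295), so the counts of Cd47 do not separate the libraries labelled CD47-KO, and which exons the allele removes is not known here. The replicate numbers in the titles also split the wild-type libraries into sets of 3: exercise 4 to 6 carry other numbers in their descriptions than in their titles, and the deposited table lists numbers 4 to 6 of both groups after numbers 1 to 3. No label says what separates these sets, and they are used below as sets of title numbers. The libraries labelled CD47-KO carry only the numbers 1 to 3.

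The products of these genes are mostly transcription factors. Fos and Fosb pair with Jun, Junb or Jund to form AP-1, a dimer that binds the sequence TGACTCA, while Atf3 and the small Maf protein Maff are related leucine-zipper proteins. Egr1 is a zinc-finger factor, Nr4a1 is an orphan nuclear receptor linked to glucose use in muscle, and Ier2 is a small nuclear protein. Contraction, stretch, injury and handling of muscle, calcium and cyclic AMP signals and the MAP kinases are all known to switch them on, through serum response factor and CREB at their promoters, and the messages decay quickly.

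On GRCm38, with GENCODE M21 gene models, the genes were short and rich in G and C. Fos lies at chr12:85473890-85477273 and Fosb at chr7:19302696-19310051. Jun lies at chr4:95049034-95052222, Junb at chr8:84974484-84978718 and Jund at chr8:70698949-70700616. Atf3 lies at chr1:191170296-191218039 and Ier2 at chr8:84661331-84662852. Maff at chr15:79346621-79359076 and Nr4a1 at chr15:101254269-101274795 share a chromosome. The gene bodies of 9 of the 10 were shorter than the median of 23460 bases over 15534 protein-coding genes of the table, and all 10 had exons richer in G and C than the median gene (51.9% in Fos to 67.1% in Jund, against 50.04%). Junb shares bases with Prdx2, Jun with Junos, Jund with Gm11175 and Atf3 with Gm24748, each on the opposite strand. The strand setting of the counting is not given, so reads of these pairs cannot be told apart with certainty.

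The 250 bases before the RefSeq start site are shown for the genes whose values the results turn on, Fos, Fosb, Junb and Nr4a1, on GRCm38.p6 and in the direction of transcription. Capitals mark TGACG (or CGTCA on the other strand), the core of a cyclic AMP response element, and TATAAA.
Fos (chr12:85473640-85473889, plus strand): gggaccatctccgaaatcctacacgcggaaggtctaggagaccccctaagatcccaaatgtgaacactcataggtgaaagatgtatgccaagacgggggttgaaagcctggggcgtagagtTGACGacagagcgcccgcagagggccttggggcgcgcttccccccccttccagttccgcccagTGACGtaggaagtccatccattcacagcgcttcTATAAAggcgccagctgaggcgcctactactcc
Fosb (chr7:19310046-19310295, minus strand): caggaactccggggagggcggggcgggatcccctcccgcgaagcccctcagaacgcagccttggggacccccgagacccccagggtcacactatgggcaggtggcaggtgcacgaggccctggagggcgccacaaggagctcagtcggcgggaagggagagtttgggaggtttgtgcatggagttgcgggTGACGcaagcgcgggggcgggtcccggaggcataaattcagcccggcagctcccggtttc
Junb (chr8:84978749-84978998, minus strand): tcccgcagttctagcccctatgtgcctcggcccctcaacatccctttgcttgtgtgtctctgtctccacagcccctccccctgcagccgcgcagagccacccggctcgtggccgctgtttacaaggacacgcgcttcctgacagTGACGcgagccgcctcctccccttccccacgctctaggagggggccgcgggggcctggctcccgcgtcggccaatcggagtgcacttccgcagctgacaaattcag
Nr4a1 (chr15:101266596-101266845, plus strand): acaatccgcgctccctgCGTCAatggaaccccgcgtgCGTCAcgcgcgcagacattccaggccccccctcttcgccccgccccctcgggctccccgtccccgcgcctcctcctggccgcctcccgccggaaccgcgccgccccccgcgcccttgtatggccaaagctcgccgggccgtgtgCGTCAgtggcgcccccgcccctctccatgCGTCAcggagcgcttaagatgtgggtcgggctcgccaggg

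In Fos, TGACG stood at 129 to 125 and at 66 to 62 bases before the start, and TATAAA at 33 to 28. Nr4a1 held the pentamer 4 times, the nearest at 40 to 36 bases before the start, and no TATAAA. Fosb and Junb each held it 1 time, at 60 to 56 and at 106 to 102 bases. Promoter windows of 300 bases, which add 50 bases after the start, were at hand for 8 members (10 windows, 3 of them of Maff). TGACG on either strand was found for 6 of these 8 genes, against 20.8% of 32851 mouse windows of the same length. The full element TGACGTCA, which contains TGACG and is counted there too, was found for Maff alone (1.79% of all windows). TATAAA was found for 2 members (Fos and Junb; 13.6%), GCGTGGGCG, the Egr1 motif, for 1 (Maff; 0.612%), and GGGCGG for 6 (35.7%). The TATAAA of Junb began at the start site itself (0 to 5), past the stretch printed above, unlike that of Fos. TGACTCA or TGAGTCA (5.2%) and the CArG box of serum response factor (1.63%) were found for 0 of 8 in these windows. The Jund window belongs to a RefSeq start site at chr8:70697739, which lies before the Jund gene body given above. That window held none of these motifs. A gene was counted if any of its windows held the motif, while the shares are of single windows. All of these are matches of letters and show no binding.

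In the sedentary libraries Nr4a1 had the highest level per length of exon, at 68.85 ± 31.3 CPM per kb (SD, n = 6), followed by Jun at 53.4 ± 25.85, Fos at 33.8 ± 36.55 and Jund at 20.9 ± 8.42 CPM per kb. Atf3, Egr1, Junb, Ier2, Maff and Fosb lay lower, from 10.3 down to 1.94 CPM per kb on average. In the exercise libraries the order of the means was Nr4a1 (121 ± 64.5 CPM per kb), Fos (59.6 ± 59.8), Jun (43.7 ± 14.1), Junb (26.3 ± 26.4) and Jund (25.15 ± 9.39). In these orders each gene overlapped with its neighbours over the libraries, and no order of neighbours is meant beyond the means.

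Most of these genes varied widely within the sedentary and exercise groups. The SD of log2-cpm within these groups was 3.10 for Fosb, 2.01 for Fos and 1.77 for Egr1, above that of 99.9%, 99.6% and 99.3% of 10429 expressed genes, whose median was 0.42. Junb had an SD of 1.49 and Maff of 1.19. The steadiest members were Jun, with an SD of 0.70, and Jund, with 0.55, which was still above that of 70.1% of genes. Jund is the member of the Jun family known to be made without a stimulus. The libraries in which the genes were high were largely shared: 9 to 10 of the 10 members stood above their own mean over 15 libraries in 5 of the 6 wild-type libraries with title numbers 1 to 3, while sedentary 2 had 2 above. In the 6 libraries with numbers 4 to 6, 0 to 3 members were above.

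**Figure D1:**
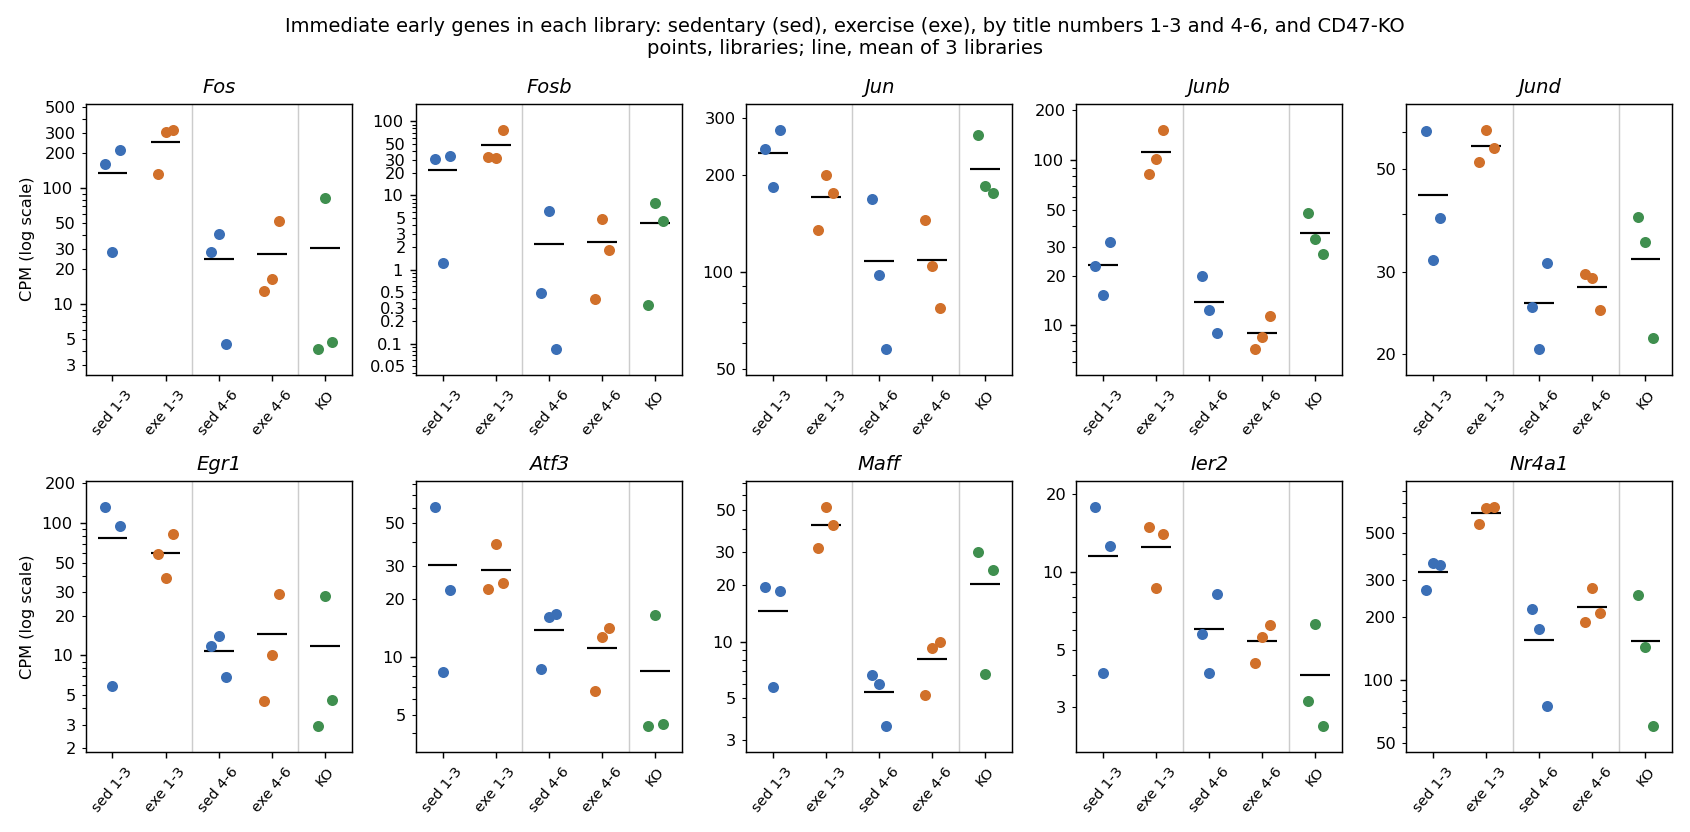
Level of each immediate early gene in each library, in CPM on a log axis, by group and set of title numbers. Points are libraries and lines are means of 3 libraries. Exercise 1 to 3 stand above exercise 4 to 6 for every gene but Jun, and sedentary 2 lies apart from sedentary 1 and 3 for Fos, Fosb and Egr1.

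All 10 genes were lower in the wild-type libraries with title numbers 4 to 6 than in those with numbers 1 to 3, with the group as a covariate. All 10 passed the threshold (edgeR, adjusted p below 0.05 over 15571 genes tested), where 15.8% of all genes were called lower and 31.5% were called in either direction. The median log2 fold change of the 10 was -1.60, against -0.02 for all genes. These values carry no GC correction. Between the sets fold changes tended to be lower where GC content was higher (Spearman rho -0.205 over genes), and all 10 members are richer in G and C than the median gene. Fosb had the largest fold change: 0.411% of all genes had a lower one, and the corresponding share was 0.957% for Fos and 1.4% for Egr1. With the sedentary libraries alone 0 of the 10 passed (edgeR; 0.405% of 16061 genes called lower), though all 10 fold changes were below 0. There 6 members had an unadjusted p below 0.05. The share of all genes at that unadjusted p was not taken in this fit, so this count has no background to be read against. The 42.8% in the fit of both groups rests on 12 libraries and does not serve as one. With the exercise libraries alone 8 passed (edgeR; 12% called lower), Jun and Egr1 being lost at adjusted p = 0.0821 and 0.111. DESeq2 called 9 of the 9 members it gave an adjusted p, all but Fosb, where it called 19.5% of genes lower. The fits of a single group and DESeq2 for this comparison were chosen after seeing the data. The sets themselves were compared because earlier results of these data had shown them apart. The adjusted p-values are thus no independent test of the split.

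Fos, the best-known partner in AP-1, was at 163, 28.4 and 212.5 CPM in sedentary 1 to 3 and at 28.5, 40.8 and 4.61 CPM in sedentary 4 to 6. In exercise 1 to 3 it was at 133.5, 306 and 319 CPM, and in exercise 4 to 6 at 13.1, 16.4 and 52.2 CPM. The exercise sets did not overlap, whereas sedentary 2 lay within the range of sedentary 4 to 6. The log2 fold change of Fos between the sets was -2.84 (SE 0.60; edgeR, adjusted p = 0.00375). Its mean was 194 ± 110 CPM (SD, n = 6) with numbers 1 to 3 and 25.9 ± 18.05 CPM with numbers 4 to 6.

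Fosb, a partner of the same kind, was at 30.75, 1.24 and 33.9 CPM in sedentary 1 to 3 and at 33.1, 32.0 and 76.5 CPM in exercise 1 to 3. In sedentary 4 to 6 it was at 0.489, 6.07 and 0.0861 CPM, the last resting on 4 counts, and in exercise 4 to 6 at 0.404, 4.855 and 1.82 CPM. Sedentary 2 again lay within the range of the libraries with numbers 4 to 6. The log2 fold change of Fosb was -3.83 (SE 0.96; edgeR, adjusted p = 0.00947), with the largest SE of the 10.

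Within the Jun family the sets differed by unlike amounts. Junb was at 22.8, 15.4 and 31.8 CPM in sedentary 1 to 3, at 19.9, 12.4 and 8.995 CPM in sedentary 4 to 6, at 82.5, 101 and 152 CPM in exercise 1 to 3 and at 7.25, 8.56 and 11.3 CPM in exercise 4 to 6. The exercise libraries of the sets are thus far apart, while the sedentary ones overlap. Between the sets its log2 fold change was -2.21 (SE 0.52; edgeR, adjusted p = 0.00723), and that of Prdx2, which shares bases with it, was 0.29 (SE 0.17, adjusted p = 0.212).

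Jun and Jund differed less between the sets, with log2 fold changes of -0.89 each (SE 0.25 and 0.16; edgeR, adjusted p = 0.0153 and 0.00154). Jun was at 240.4, 184 and 275.0 CPM in sedentary 1 to 3, at 167, 97.7 and 57.8 CPM in sedentary 4 to 6, at 135, 199.5 and 176 CPM in exercise 1 to 3 and at 144, 104.0 and 77.05 CPM in exercise 4 to 6. The exercise sets overlapped for Jun. Jund was at 31.95 to 60.6 CPM in the 6 libraries with numbers 1 to 3 and at 20.6 to 31.4 CPM in the 6 with numbers 4 to 6. It was the single member (1 of 10) whose libraries did not overlap between the sets, against 8.01% of all genes in that direction.

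Among the other leucine-zipper genes, Maff fell by 1.91 between the sets on the log2 scale (SE 0.33; edgeR, adjusted p = 0.00106). It was at 19.6, 5.77 and 18.6 CPM in sedentary 1 to 3, at 31.7, 51.9 and 41.9 CPM in exercise 1 to 3, at 6.62, 5.98 and 3.57 CPM in sedentary 4 to 6 and at 5.24, 9.225 and 9.93 CPM in exercise 4 to 6. The exercise libraries 1 to 3 thus stood above all others for Maff. Atf3 was at 60.6 CPM in sedentary 1 and at 8.36 to 38.9 CPM in the other 5 libraries with numbers 1 to 3, and at 6.61 to 16.8 CPM in those with numbers 4 to 6. Its log2 fold change was -1.25 (SE 0.39; edgeR, adjusted p = 0.0279), and it was the least firm of the 10: without sedentary 1 it was -0.84 (adjusted p = 0.0986), and leaving out sedentary 4, exercise 2 or exercise 4 gave adjusted p of 0.0553, 0.0647 and 0.0627.

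Egr1, whose own targets include growth factor genes, was at 132, 5.92 and 94.8 CPM in sedentary 1 to 3 and at 58.5, 38.4 and 82.9 CPM in exercise 1 to 3. In sedentary 4 to 6 it was at 11.75, 13.96 and 6.91 CPM, and in exercise 4 to 6 at 4.55, 10.1 and 28.9 CPM. Sedentary 2 had the lowest level of numbers 1 to 3, below 5 of the 6 libraries with numbers 4 to 6. The log2 fold change of Egr1 was -2.45 (SE 0.62; edgeR, adjusted p = 0.00965).

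Nr4a1, the member with the highest mean level per length in the sedentary and exercise groups, was at 267.5, 361 and 354 CPM in sedentary 1 to 3 and at 555.5, 661 and 666 CPM in exercise 1 to 3. In sedentary 4 to 6 it was at 218, 175 and 75.0 CPM, and in exercise 4 to 6 at 189, 274 and 208 CPM. Both groups were lower with numbers 4 to 6 with no overlap within a group, and sedentary 2 did not stand apart here as it did for Fos. The log2 fold change of Nr4a1 was -1.29 (SE 0.23; edgeR, adjusted p = 0.00134). Ier2, at 2.54 to 17.8 CPM over all 15 libraries, had a log2 fold change of -1.08 (SE 0.31; edgeR, adjusted p = 0.0177). Over the members, exercise 4 to 6 lay wholly below exercise 1 to 3 for 9 of 10 (19.6% of all genes), and sedentary 4 to 6 below sedentary 1 to 3 for 3 of 10 (Jun, Jund and Nr4a1; 18% of all genes).

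**Figure D2:**
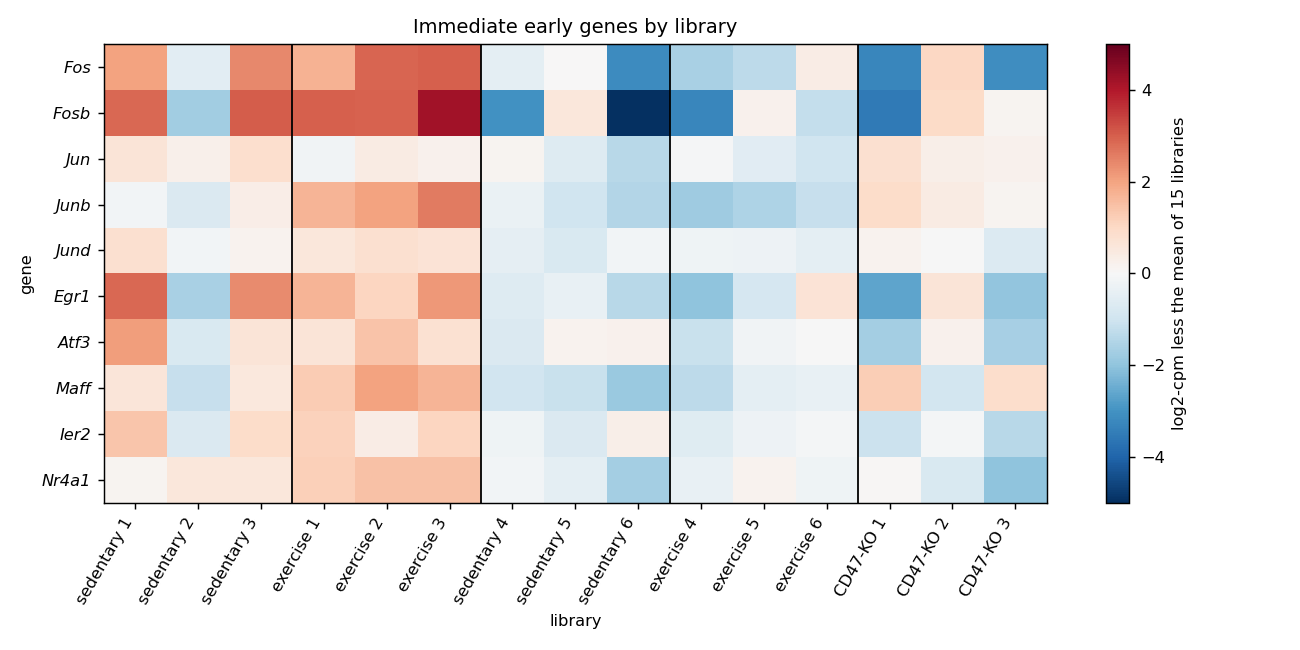
Log2-cpm of each immediate early gene in each library, less its mean over the 15 libraries, with red for higher and blue for lower. Rows are genes and columns are libraries by group and title number, and the vertical lines part the sets of 3. Exercise 1 to 3 are red for nearly every gene, numbers 4 to 6 of both groups are mostly blue, and CD47-KO 2 differs in colour from CD47-KO 1 and 3 for Fos, Egr1 and Maff.

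Some other measures also differed between the sets. Over all genes 15.7% were called higher and 15.8% lower there, and several marker lists below were near those shares or had 0 called. Mitochondrial genes took 4.49 to 7.87% of counts with numbers 1 to 3 and 7.81 to 18.2% with numbers 4 to 6. Markers of tendon summed to 8.96 to 433 CPM with numbers 1 to 3 and to 9.06 to 41.9 CPM with numbers 4 to 6, with 3 of 4 called lower. Those of adipocytes summed to 85.9 to 157 CPM with numbers 1 to 3 and to 129.5 to 553 CPM with numbers 4 to 6, with 1 of 4 called higher and 2 lower. The skeletal muscle fibre markers summed to 134600 to 263100 CPM and 153700 to 181100 CPM, with 1 of 10 called higher and 2 lower, so the defining markers of the labelled tissue were present in both sets. None of the marker lists named here held a gene at 0 in all libraries. Of the macrophage markers 0 of 8 were called, at 16.0 to 75.8 CPM and 19.5 to 55.1 CPM, and of the neutrophil markers 0 of 3 tested, at 0.527 to 8.10 CPM and 0.224 to 1.25 CPM. Endothelial markers summed to 164 to 395 CPM with numbers 1 to 3 and to 149 to 295 CPM with numbers 4 to 6 (2 of 6 called higher, 2 lower), and fibroblast markers to 156 to 606 CPM and 106 to 202 CPM (1 of 5 higher, 2 lower). Smooth muscle markers had 1 of 4 called lower, satellite cell markers 1 of 5 in each direction, red cell markers 0 of 5, and the 1 T cell marker tested was called higher. The part of these cells and of the mitochondrial share in the differences between the sets was not tested. In a bulk sample fewer cells of a type and less RNA per cell cannot be told apart.

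Exercise against sedentary, the question the exercise group poses for genes that contraction induces, gave no called gene among the 10. Of 17975 genes 0 passed in edgeR (0%), 665 genes (3.7%) had an unadjusted p below 0.05, 2 of them members, and DESeq2 called 9 genes (0.0501%), 0 of them members. The members' log2 fold changes had a median of 0.54, against -0.03 for all genes, and 7 of 10 were above 0. Junb had 1.70 (SE 0.65), Maff 1.31 (SE 0.59) and Nr4a1 0.82 (SE 0.43), each with an adjusted p of 1 in edgeR, and Junb and Maff were the pair with an unadjusted p below 0.05. With the set of title numbers as a block Junb had 0.83 (SE 0.52), Maff 1.05 (SE 0.32) and Nr4a1 0.72 (SE 0.23). Each had an adjusted p of 0.879 in edgeR. Maff and Nr4a1 were then the pair with an unadjusted p below 0.05. For all genes the share at that unadjusted p was not taken in the block fit. Fosb had 1.03 (SE 1.21), Fos 0.82 (SE 0.97), Jund 0.27 (SE 0.28) and Ier2 0.04 (SE 0.41). Atf3 had -0.16 (SE 0.52), Egr1 -0.25 (SE 0.85) and Jun -0.29 (SE 0.32).

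Within the set of numbers 1 to 3 the libraries of Junb, Maff and Nr4a1 did not overlap, exercise being higher for 3 of 10 members (4.94% of all genes). For Junb the exercise libraries were at 112 ± 36.1 CPM (SD, n = 3) and the sedentary ones at 23.3 ± 8.23 CPM, a log2 fold change of 2.26 (SE 0.32, edgeR, adjusted p = 0.981). In that fit 0 of 16012 genes passed, and these 3 members had an unadjusted p below 0.05. The share of all genes at that unadjusted p was not taken in this fit, so the count of members has no background there. For Maff the means were 41.8 ± 10.1 and 14.65 ± 7.71 CPM (log2 fold change 1.51, SE 0.43). For Nr4a1 they were 627 ± 62.2 and 327 ± 51.9 CPM (log2 fold change 0.93, SE 0.18). Nr4a1 had the smallest SE of the 3.

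Within numbers 4 to 6 the log2 fold changes were smaller for these genes or turned. Junb was at 9.05 ± 2.09 CPM in exercise 4 to 6 and at 13.8 ± 5.56 CPM in sedentary 4 to 6 (SD, n = 3; log2 fold change -0.62, SE 0.33). The log2 fold change was 0.58 for Maff (SE 0.34) and 0.51 for Nr4a1 (SE 0.39), and exercise was wholly above sedentary for 0 of 10 members, against 7.71% of all genes, and wholly below for 0 of 10, against 6.03%. The members' median log2 fold change was 0.63 in the first set and 0.09 in the second.

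The difference between the sets in the exercise effect was tested as an interaction over the 12 wild-type libraries. Junb had the smallest p of all 15571 genes, at a log2 difference of -2.89 (SE 0.49), which did not pass in edgeR (adjusted p = 0.964, 0 genes called, 0%, and 713 at an unadjusted p below 0.05). DESeq2, chosen after seeing the data, gave Junb an adjusted p of 0.000239, 1 of 7 genes it called (0.045%). Maff came next among the members, with a log2 difference of -0.93 (SE 0.59), and the other 8 were further from the threshold. Leaving out single libraries moved the value of Junb between -3.17 and -2.52.

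**Figure D3:**
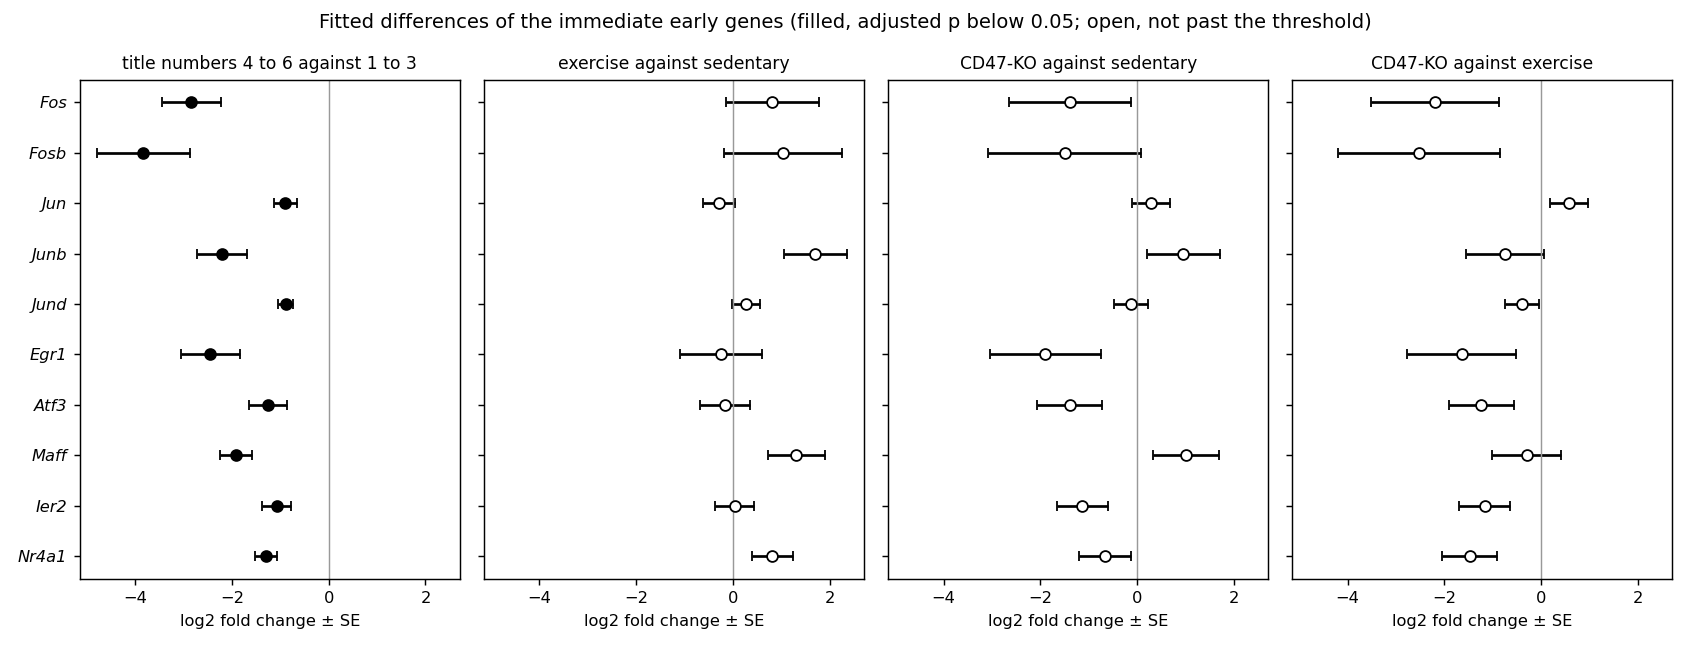
Log2 fold change of each immediate early gene in the fits of all wild-type libraries (first panel, title numbers 4 to 6 against 1 to 3) and of all 15 libraries (other panels), with bars of 1 SE. Filled points passed an adjusted p of 0.05 in edgeR. All 10 points are filled and below 0 between the sets, and 0 are filled in the other panels.

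In the libraries labelled CD47-KO the 10 genes fell into unlike patterns, and 0 of 10 passed against sedentary, where 20.7% of 17975 genes were called (11.9% higher and 8.75% lower). Of the members 1 had an unadjusted edgeR p below 0.05 (Ier2), against 33.5% of all genes, and DESeq2 called 0 of 10 (27% of genes). Lower values were fitted for Egr1 (log2 fold change -1.89, SE 1.15), Fosb (-1.49, SE 1.59), Atf3 (-1.39, SE 0.68), Fos (-1.38, SE 1.26), Ier2 (-1.13, SE 0.53) and Nr4a1 (-0.66, SE 0.54). Jund had -0.12 (SE 0.35), Jun 0.29 (SE 0.39), Junb 0.96 (SE 0.76) and Maff 1.01 (SE 0.68). The median was -0.90, against -0.11 for all genes, and a smoothed correction for GC content moved it to -0.36, against -0.09 for all genes (8.95% called, 0 members). Fold changes went down as GC content rose across genes in this comparison (Spearman rho -0.555), and with the correction Jund turned to 0.45. The libraries labelled CD47-KO overlapped with the sedentary ones for all 10 members, where 15.7% of genes were wholly higher and 10.3% wholly lower. Mitochondrial genes took 18.1 to 19.2% of counts in these libraries, against 4.77 to 18.2% in the sedentary ones, and the muscle fibre markers summed to 101600 to 140500 CPM, against 134600 to 232500 CPM, with 4 of 10 called lower and 0 higher. Smooth muscle markers summed to 54.75 to 73.7 CPM, wholly below the sedentary 95.96 to 169 CPM, with 2 of 4 called lower. Of the fibroblast markers 2 of 5 were called higher, of the macrophage markers 1 of 8 and of the satellite cell markers 1 of 5, and of the 2 T cell markers tested 1 was called lower. The tendon, adipocyte, endothelial, neutrophil and red cell lists had 0 called. With the GC correction the muscle fibre list had 1 called higher and 1 lower, and the smooth muscle and macrophage lists had 0. The fibroblast list then had 1 higher, and the satellite cell and T cell lists 1 lower each. The lists with 0 called stayed at 0. The part of these in the fold changes was not tested.

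The 3 libraries labelled CD47-KO were themselves apart. Fos was at 4.17 and 4.70 CPM in CD47-KO 1 and 3 but at 82.7 CPM in CD47-KO 2, 18.6 times the mean of the other two. Egr1 was at 2.93, 28.1 and 4.60 CPM in CD47-KO 1, 2 and 3, Atf3 at 4.36, 16.5 and 4.47 CPM, Fosb at 0.332, 8.02 and 4.53 CPM and Ier2 at 3.16, 6.29 and 2.54 CPM. For these 5 genes CD47-KO 2 was the highest of the 3. Maff went the other way, at 30.1, 6.77 and 23.95 CPM, and Nr4a1 was at 254, 144 and 60.6 CPM. Junb, at 47.7, 33.1 and 27.2 CPM, and Jun, at 265, 185 and 175 CPM, were closer together. Without CD47-KO 2 the log2 fold change against sedentary was -4.21 for Fos, -3.60 for Egr1 and -2.37 for Atf3, with 0 members called.

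Against exercise, 0 of 10 passed, where 20.6% of genes were called (12.2% higher and 8.34% lower). Of the members 2 had an unadjusted edgeR p below 0.05, against 33.1% of all genes, and DESeq2 called 1 member. Nr4a1 came nearest, with a log2 fold change of -1.48 (SE 0.56; edgeR, adjusted p = 0.0752). DESeq2 called Nr4a1 at -1.43 (adjusted p = 0.0258), where it called 10.7% of genes lower. Fosb had -2.53 (SE 1.68), Fos -2.20 (SE 1.32), Egr1 -1.65 (SE 1.13), Atf3 -1.24 (SE 0.67) and Ier2 -1.17 (SE 0.53). Junb had -0.75 (SE 0.80), Jund -0.39 (SE 0.35), Maff -0.30 (SE 0.71) and Jun 0.58 (SE 0.39). After the GC correction 0 members were called (9.08% of genes). The libraries overlapped for all 10 members, where 17.5% of genes were wholly higher and 14.1% wholly lower. Both comparisons share the libraries labelled CD47-KO.

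The direction of several genes changed with the wild-type libraries set beside the libraries labelled CD47-KO. For Nr4a1 these libraries lay wholly below the 6 wild-type libraries with numbers 1 to 3 (1 of 10 members; 17.8% of genes), and for Jun and Junb wholly above the 6 with numbers 4 to 6 (2 of 10; 20.4% of genes). With wild-type numbers 1 to 3 alone, Junb was lower than in exercise (log2 fold change -1.55, SE 0.32; edgeR, adjusted p = 0.00475), and with numbers 4 to 6 alone it was higher (2.04, SE 0.33; edgeR, adjusted p = 0.00186). Ier2 at -1.56 (edgeR, adjusted p = 0.0409) and Nr4a1 at -1.95 (edgeR, adjusted p = 0.00562) also passed against exercise 1 to 3, where 13.1% of genes were called lower, and Maff at 1.36 (edgeR, adjusted p = 0.0664) did not pass against exercise 4 to 6, where 15.3% were called higher. Against sedentary 1 to 3, 0 of 10 passed (33% of genes called). Against sedentary 4 to 6, Junb at 1.43 (SE 0.33; edgeR, adjusted p = 0.0101) and Maff at 1.96 (SE 0.50; edgeR, adjusted p = 0.017) passed as higher, where 15.7% of genes were called higher. Fos had -2.06 against sedentary 1 to 3 and 0.36 against sedentary 4 to 6, neither past the threshold. Whether the libraries labelled CD47-KO belong with one set is not given, so genotype and set cannot be told apart in these values.

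**Figure D4:**
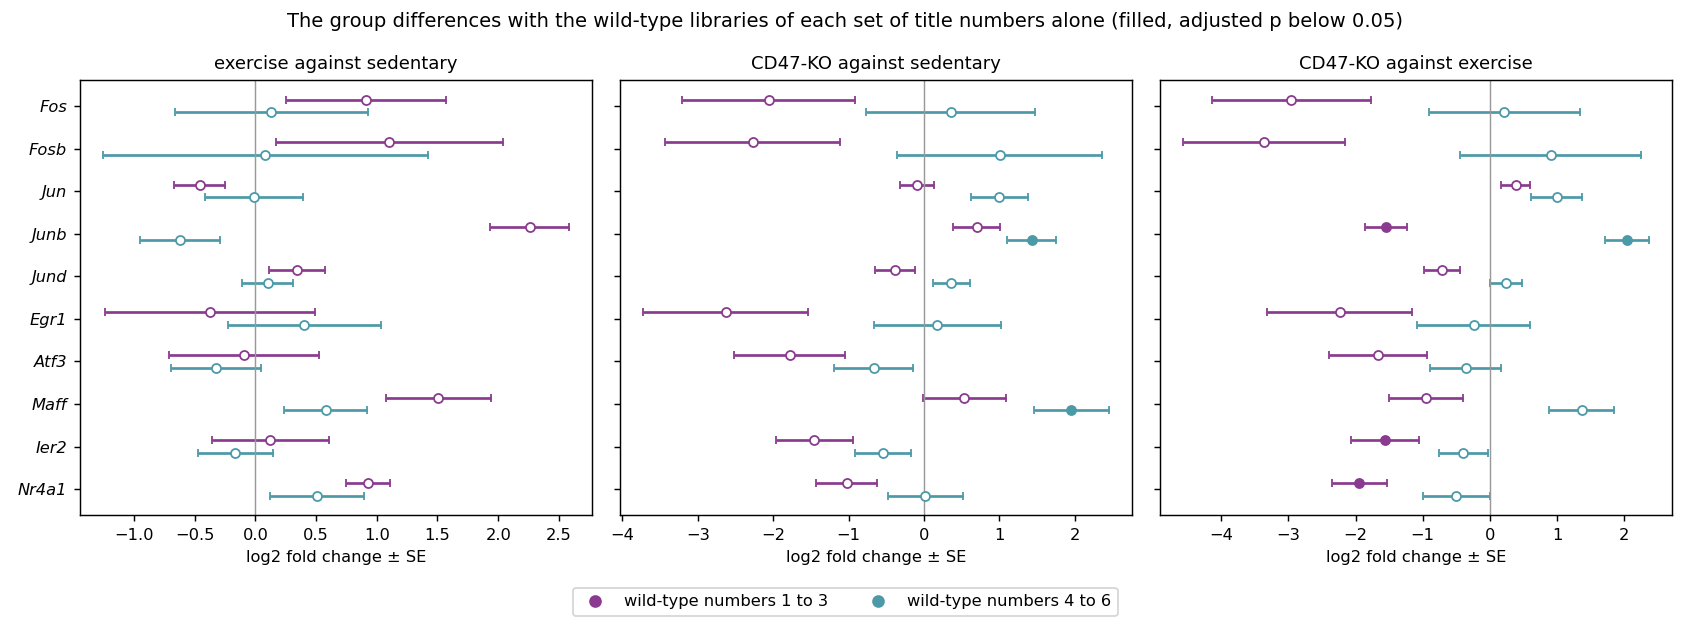
Log2 fold change of each immediate early gene with the wild-type libraries of title numbers 1 to 3 alone or 4 to 6 alone, with bars of 1 SE, for the 3 group comparisons. Filled points passed an adjusted p of 0.05 in edgeR. Junb lies at -1.55 and 2.04 against exercise in the sets, and Nr4a1 and Ier2 are filled for numbers 1 to 3 alone.

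Of a list of 36 other immediate early genes 35 were tested. Between the sets 14 were called lower and 2 higher, with a median log2 fold change of -0.79, against 15.8% of all genes called lower and 15.7% higher. Among the 21 genes of feedback and messenger decay, such as the phosphatases that switch MAP kinases off, 8 were called lower and 0 higher. Of 40 upstream activators 10 were called lower and 3 higher, and of 17 other partners of AP-1, Maf and Atf 5 were lower and 1 higher. Of 10 heat shock genes 1 was lower and 2 higher, and of 10 exercise-linked genes 2 were lower and 1 higher. In exercise against sedentary 0 of the genes of these lists passed in edgeR.

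In the libraries labelled CD47-KO, 3 of the 35 other immediate early genes were called higher and 0 lower against sedentary, and 2 higher and 3 lower against exercise. Over all genes 11.9% were called higher and 8.75% lower against sedentary, and 12.2% and 8.34% against exercise. Of the 19 partners tested 3 were higher and 1 lower against sedentary, and 4 higher and 0 lower against exercise. Of the 40 upstream activators 5 were higher and 6 lower against sedentary, and 5 higher and 8 lower against exercise. With the GC correction the activators had 3 higher and 1 lower against sedentary, and 2 higher and 1 lower against exercise. The partners had 3 higher against sedentary and 4 against exercise, with 0 lower. The other immediate early genes had 2 higher and 1 lower against sedentary, and 1 in each direction against exercise. Over all genes the corrected shares were 4.31% higher and 4.64% lower against sedentary, and 4.51% and 4.57% against exercise. Cebpd, an inducible leucine-zipper factor, was higher than in exercise (log2 fold change 2.33, SE 0.40; edgeR, adjusted p = 0.00068, and 2.61 after correction for GC content). Plk2 was lower than in exercise (-1.46, adjusted p = 0.0264 by edgeR). Btg1 was higher than in sedentary (0.69, adjusted p = 0.00912 by edgeR, and -0.09 after the GC correction). Of the partners, Nfe2l2, a regulator of antioxidant genes that pairs with small Maf proteins, was higher than in sedentary by 1.36 (SE 0.19; edgeR, adjusted p = 0.000161). Bach1, a repressor that competes with it, was higher by 1.83 and Atf1 by 1.02 (edgeR, adjusted p = 0.0011 and 0.00356). Atf1 was no longer called with the GC correction (adjusted p = 0.0682).

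Of the upstream activators, the kinase Rps6ka3 was higher than in exercise by 2.70 (1.40 with the GC correction), the SRF partner Elk4 by 1.14, and the MAP kinase kinase Map2k2 was lower than in sedentary by a log2 fold change of -1.40 (edgeR, adjusted p = 4.73e-05, 0.000526 and 0.000456). In the feedback list of 21 genes 1 was higher and 2 were lower against sedentary, and 2 higher and 3 lower against exercise. With the GC correction 0 were higher and 1 lower against sedentary, and 1 higher and 2 lower against exercise. Spred1 (1.06) and Nab1 (1.01) were higher and Spry2 (-0.98) was lower than in exercise (edgeR, adjusted p = 0.00199, 0.00297 and 0.00801), and Spred1 was at -0.08 with the GC correction. Of the 10 heat shock genes 4 were called higher against sedentary and 2 against exercise, with 0 lower. The GC-corrected counts were 2 higher against sedentary and 1 against exercise, with 0 lower. Hsp90aa1 was higher than in exercise by 2.17, Dnaja1 by 1.03 and Hsph1 was higher than in sedentary by 0.79 (edgeR, adjusted p = 8.57e-05, 0.00086 and 0.0132). Dnaja1 was at -0.12 with the GC correction. Of the 10 exercise-linked genes 3 were higher and 0 lower against sedentary, and 3 higher and 1 lower against exercise. Here the GC-corrected counts were 1 higher against sedentary and 2 against exercise, with 0 lower. Pdk4, a kinase that spares glucose in fasting, was higher than in sedentary by 1.82, Ppargc1a, a coactivator of mitochondrial genes, was higher than in exercise by 1.44, and Fndc3b by 0.94 (edgeR, adjusted p = 0.000451, 0.00103 and 0.0134). Ppargc1a was at 0.36 with the GC correction (adjusted p = 0.499), and Pdk4 at 1.35.

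Across the 12 wild-type libraries, the genes whose log2-cpm ran most closely with the mean of the 10 members were Btg2 (Pearson r 0.986), Klf4 (0.971), Sik1 (0.962), Dusp1 (0.96) and Kdm6b (0.948). These r values are descriptions over libraries that share the sets of title numbers, with no test. Within numbers 1 to 3 alone r was 0.975, 0.943, 0.907, 0.973 and 0.854 over 6 libraries, and within numbers 4 to 6 it was 0.85, 0.722, 0.971, 0.514 and 0.415. Btg2, an antiproliferative gene, averaged 174 CPM with numbers 1 to 3, 25.15 CPM with numbers 4 to 6 and 92.35 CPM in the libraries labelled CD47-KO. Over all 15 libraries the closest were Klf4 (0.936), Apold1 (0.923), Hbegf (0.922), Zfp36 (0.914) and Zmynd8 (0.905), of which Zfp36 encodes a protein that speeds the decay of AU-rich messages. Within wild-type numbers 1 to 3 their r was 0.943, 0.922, 0.814, 0.885 and 0.735. Within numbers 4 to 6 it was 0.722, 0.837, 0.729, 0.721 and 0.26.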

How the data were processed

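Read counts per gene of 15 libraries were deposited by the authors in 1 table. The submitters' processing notes name GRCm38, HISAT2 2.0.1, Trimmomatic 0.30 and HTSeq 0.6.1; roles and the strand setting are not given. Among low values (1 to 15), 41.7 to 50.2% in the wild-type libraries were 4, 8 or 12. In the libraries labelled CD47-KO the share was 32.1 to 33.6%, with no overlap. Thus 1 unit may not be 1 read, and the lowest counts are coarse. What this does to the comparisons with CD47-KO was not tested. Table columns were matched to samples by title or description; 0 columns were left without a sample. Libraries of a group were checked for copies: the closest pair, sedentary 4 and 5, had a chi-square of 78.1 per degree of freedom.

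Counts were filtered with filterByExpr, scaled with TMM and tested over all genes with edgeR 4.0.16 in R 4.3.3 (quasi-likelihood, robust), adjusted by Benjamini-Hochberg at 0.05. Group comparisons used all 15 libraries (17975 genes). The set and interaction comparisons used the 12 wild-type libraries (15571 genes). DESeq2 1.42.0, RLE factors, other filters, a lowess GC correction (span 0.3), replicate blocks, single sets and leaving out each library were alternatives. Levels are CPM of TMM-scaled counts, and log2-cpm used a prior count of 2. Same-numbered exercise and sedentary libraries correlated at 0.273 to 0.539 over 6 pairs. That range holds the median of other numbers within the set (0.366), so the number itself did not stand out. The scripts were tested on simulated data with 100 genes changed at log2 1 and 100 at log2 2: exercise against sedentary recovered 33 and 89, CD47-KO against sedentary 22 and 71, CD47-KO against exercise 10 and 74, sets 59 and 92, and the interaction 0 and 45. The changed genes were drawn at random, whereas the members varied more than most genes. These recoveries therefore need not hold for the members.

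Named genes are the 10 members, up to 3 of each list with the smallest p past the threshold, and the 5 closest by correlation. The members, lists and sets were chosen with earlier results of these data known. The result of 1 marker list is not reported here. Gene models were taken from GENCODE M21 (22716 of 22798 symbols found once) and promoters from RefSeq on GRCm38.p6.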

Additional observations from a re-analysis of the deposited data

Results flagged for a closer look

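Sedentary 1 had an Atf3 level of 60.59 CPM, apart from the other 5 sedentary libraries: its gap to the next was 0.732 of the range of the group, above the 95% critical value of 0.625 for 6 libraries. Of 20 such group values tested 1 was apart in this way, and chance gives about 1 in 20. The exercise effect on Junb differed between the sets of title numbers by -2.89 on the log2 scale in DESeq2, and edgeR did not call it (adjusted p = 0.964).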

How the results depend on the processing

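For exercise against sedentary 0 members passed under every one of 23 alternatives. The set comparison called 9 or 10 of 10 when each library was left out in turn and fell to 0 with the sedentary libraries alone; the group counts and the interaction were 0 in every leave-one-out fit. The counts that moved were 1 (DESeq2), 7 (replicate block), 1 (replicate block with GC correction), 3 (wild-type numbers 1 to 3) and 1 (numbers 4 to 6) for CD47-KO against exercise, 1 (replicate block with GC correction) and 2 (numbers 4 to 6) against sedentary, and 1 (DESeq2) for the interaction. These stand beside 10.7, 12.8, 9.24 and 13.1% of all genes called lower in the first 4 fits and 15.3% called higher in the fifth, 4.79 and 15.7% called higher against sedentary, and 0.045% called for the interaction. The blocks with CD47-KO use numbers 1 to 3 only, so they also leave out wild-type 4 to 6. The causes were not tested. Same-numbered libraries correlated at -0.192 to 0.208 between CD47-KO and sedentary and at -0.0925 to 0.309 between CD47-KO and exercise (3 pairs each). No label says that they are paired, and so few pairs cannot settle it. The replicate block changed no call for exercise against sedentary.

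Directions turned as follows. Against sedentary, Jund was 0.45 with the GC correction and 0.14 with the replicate block and GC correction, and Jun was -0.096 with the replicate block and -0.089 with wild-type numbers 1 to 3. With numbers 4 to 6, Fos was 0.36, Fosb 1.00, Jund 0.36, Egr1 0.18 and Nr4a1 0.0199. Against exercise, Jund was 0.033 and Maff 0.20 with the GC correction, and with numbers 4 to 6 Fos was 0.21, Fosb 0.91, Junb 2.04, Jund 0.24 and Maff 1.36. For exercise against sedentary, Egr1 was 0.16 with the replicate block, 0.19 with block and GC correction and 0.0095 with the set as block; Ier2 was -0.024 with the set as block; and with numbers 4 to 6 alone Junb was -0.62, Egr1 0.40 and Ier2 -0.17. Leaving out a library, exercise against sedentary ranged from -0.66 to 0.48 for Egr1, from -0.46 to 0.46 for Atf3 and from -0.17 to 0.37 for Ier2; CD47-KO against sedentary from -0.25 to 0.14 for Jund; CD47-KO against exercise from -0.64 to 0.086 for Maff; and the interaction from -1.23 to 0.22 for Atf3, from -0.76 to 0.12 for Ier2, from -2.11 to 1.83 for Fosb and from -0.22 to 1.32 for Egr1. The counts of Fosb were as low as 4, which limits its fold changes.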
